A study of Homo sapiens with 12 samples.

Results

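The 9 enzymes described here carry squalene to cholesterol. They were chosen by gene symbol and are SQLE, LSS, CYP51A1, MSMO1, NSDHL, HSD17B7, EBP, SC5D and DHCR7, in the order of the pathway. All 9 were found among the 36459 symbols of the gene-level table, and all 9 were among the 14209 genes with enough counts to be tested. Poly-A RNA was sequenced from HEK293, a line derived from human embryonic kidney, in 4 groups of 3 libraries. The cultures received oleic acid (a monounsaturated fatty acid) together with ferric ammonium citrate (FAC, an iron salt), FAC alone, oleic acid alone, or vehicle. FAC was given to induce ferroptosis, in which iron-dependent oxidation of membrane lipids kills the cell, and the study asks how oleic acid bears on it. Ammonium or citrate alone was not among the treatments, so iron and the rest of the salt cannot be told apart. No source used here gives the doses or times. The replicates are numbered but are not stated to be separate cultures, so the p-values reflect only the spread between libraries, which may be technical.

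Cholesterol is built from acetyl-CoA through mevalonate to the linear hydrocarbon squalene, which is then oxidised, closed into rings and trimmed to the final sterol. The genes of this route are classically switched on together by SREBP2, a transcription factor that is released from the endoplasmic reticulum when membrane sterol is low and held there by INSIG proteins when it is high. Of the enzymes after squalene, 4 use molecular oxygen. SQLE, squalene epoxidase, adds the oxygen atom with a flavin and no iron. CYP51A1, lanosterol 14-alpha-demethylase, is a cytochrome P450 with heme iron. MSMO1, the C4-methyl sterol oxidase, and SC5D, the sterol C5-desaturase, hold a pair of iron atoms between histidines and draw electrons through cytochrome b5. The other 5 use no oxygen. LSS, lanosterol synthase, folds epoxidised squalene into the first ring sterol, and NSDHL and HSD17B7 act after MSMO1 as a dehydrogenase and a reductase in the removal of the C4 methyl groups. EBP moves a double bond in the ring, and DHCR7 reduces 7-dehydrocholesterol, the product of SC5D, to cholesterol.

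The iron-holding sites of 3 of these enzymes are shown because they mark the chemical difference by which the members are compared. They are given as coding sequence of GENCODE 29 transcripts, 5′ to 3′ on the sense strand, with the codons of the residues that bind iron in capitals. In CYP51A1-201 the cysteine below the heme lies in residues 448 to 457 of an open reading frame of 509. The histidine boxes of MSMO1-201 lie in residues 157 to 162, 170 to 174 and 250 to 254 of 293. Those of SC5D-201 lie in residues 138 to 143, 151 to 155 and 229 to 233 of 299. MSMO1 and SC5D thus had the same arrangement of an HxxxHH box followed by a pair of HxxHH boxes.
CYP51A1 cysteine loop: tttggagctgggcgtcatcgtTGTattggg
MSMO1 box 1: CATagactcttaCACCAC
MSMO1 box 2: CATaaagttCATCAT
MSMO1 box 3: CATgatttcCACCAC
SC5D box 1: CACagaggccttCATCAT
SC5D box 2: CATaaacctCACCAT
SC5D box 3: CATacagacCACCAT

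Library totals ran from 14098216 to 18717397 counts, and a count of 0 in a library would allow up to 0.158 to 0.224 CPM (a count relative to the size of its library, with sizes adjusted by TMM, the trimmed mean of M values). That limit covers counting error only. The least abundant member, HSD17B7, had 96 to 190 counts in a library, and the most abundant, SQLE, had 1603 to 5001. All 9 markers listed for HEK293 were at 1 CPM or more in every group, while UMOD and AQP2, which define mature kidney tubule, HBB (blood) and APOB (hepatocyte) were at 0 in all 12 libraries. Of the other listed markers, LRP2 (kidney tubule) was at 2.76 to 12.1 CPM, COL1A1 (fibroblast) at 9.41 to 17.9 CPM, EPCAM and CDH1 (epithelium) at 1.14 to 12.4 CPM, and HBA1 (blood) and ESAM (endothelium) at up to 1.63 and 1.32 CPM, while the rest stayed below 1 CPM in every library. The third oleic acid + FAC and the third oleic acid library shifted most from the mean of their group. The SD of the log2 shift was 0.34 and 0.338, against 0.164 to 0.254 in the other libraries. Their shift followed log2 transcript length with a correlation of -0.51 and -0.67 across 12223 genes, which are not independent replicates. In the other libraries that correlation was -0.40 to 0.55, so its size alone does not set the 2 apart. Results are therefore also given without these 2 libraries where that changes a call. Scaling to plain library totals in place of TMM moved the median of all genes by -0.14 on the log2 scale in oleic acid + FAC against oleic acid and by -0.18 in oleic acid + FAC against vehicle. In bulk RNA, a change in the RNA per cell and a change in the make-up of the culture cannot be told apart.

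With FAC, SQLE and MSMO1 were the most abundant of the 9 per kilobase of transcript, whereas in vehicle cells MSMO1 ranked seventh. In oleic acid + FAC cells SQLE stood at 80.7 ± 6.53 CPM per kb and MSMO1 at 71.8 ± 5.16, with overlapping ranges, ahead of SC5D (52.5 ± 2.51) and EBP (52.4 ± 3.63; SD, n = 3 for each here and below). In FAC cells SQLE (86.1 ± 12.7 CPM per kb) and MSMO1 (63.4 ± 3.54) were separate from each other and from SC5D (50.7 ± 3.23), EBP (44.8 ± 3.29), CYP51A1 (41.4 ± 4.27) and DHCR7 (36.9 ± 1.28), of which neighbours overlapped. In oleic acid cells MSMO1 was seventh, at 22.7 ± 2.62 CPM per kb. In vehicle cells SQLE (42.2 ± 3.83 CPM per kb), SC5D (41.2 ± 3.95) and EBP (40.6 ± 4.77) were highest and overlapped, and CYP51A1 followed at 34.9 ± 1.69. DHCR7 (26.6 ± 2.49), NSDHL (24.7 ± 3.13) and MSMO1 (22.4 ± 5.12) came next, each overlapping its neighbour. LSS and HSD17B7 were the lowest pair in each of the 4 groups, at 13.5 ± 1.24 and 4.98 ± 0.966 CPM per kb in vehicle cells.

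FAC raised MSMO1 and SQLE, whether or not oleic acid was present, and gave smaller rises in SC5D and DHCR7 that passed the test over all libraries under TMM scaling and not under scaling by library totals. In FAC against vehicle, 2 of the 9 members passed an adjusted p of 0.05 in edgeR's quasi-likelihood test with Benjamini-Hochberg adjustment over all genes, both upward, where 1.19% of all genes tested passed in either direction. Set against oleic acid, oleic acid + FAC raised 3 members (SC5D in addition), where 2.21% of all genes passed. The replicate numbers pair the libraries of that comparison, and with the replicate as a block it called 740 genes in place of 314, with the same 3 members. Averaged over the presence of oleic acid, 6 libraries against 6, the members past the test were 4 (DHCR7 in addition), where 8.76% of all genes passed. Against vehicle, oleic acid + FAC raised 3 (MSMO1, SQLE and DHCR7), where 3.07% of all genes passed. No member fell in any of these comparisons, and under TMM scaling 8 of the 9 had a positive fold change in each of them, LSS being the exception. The median log2 fold change of the members was 0.28 in FAC against vehicle and 0.27 in oleic acid + FAC against oleic acid, beside 0.01 and 0.00 over all genes tested.

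**Figure D1:**
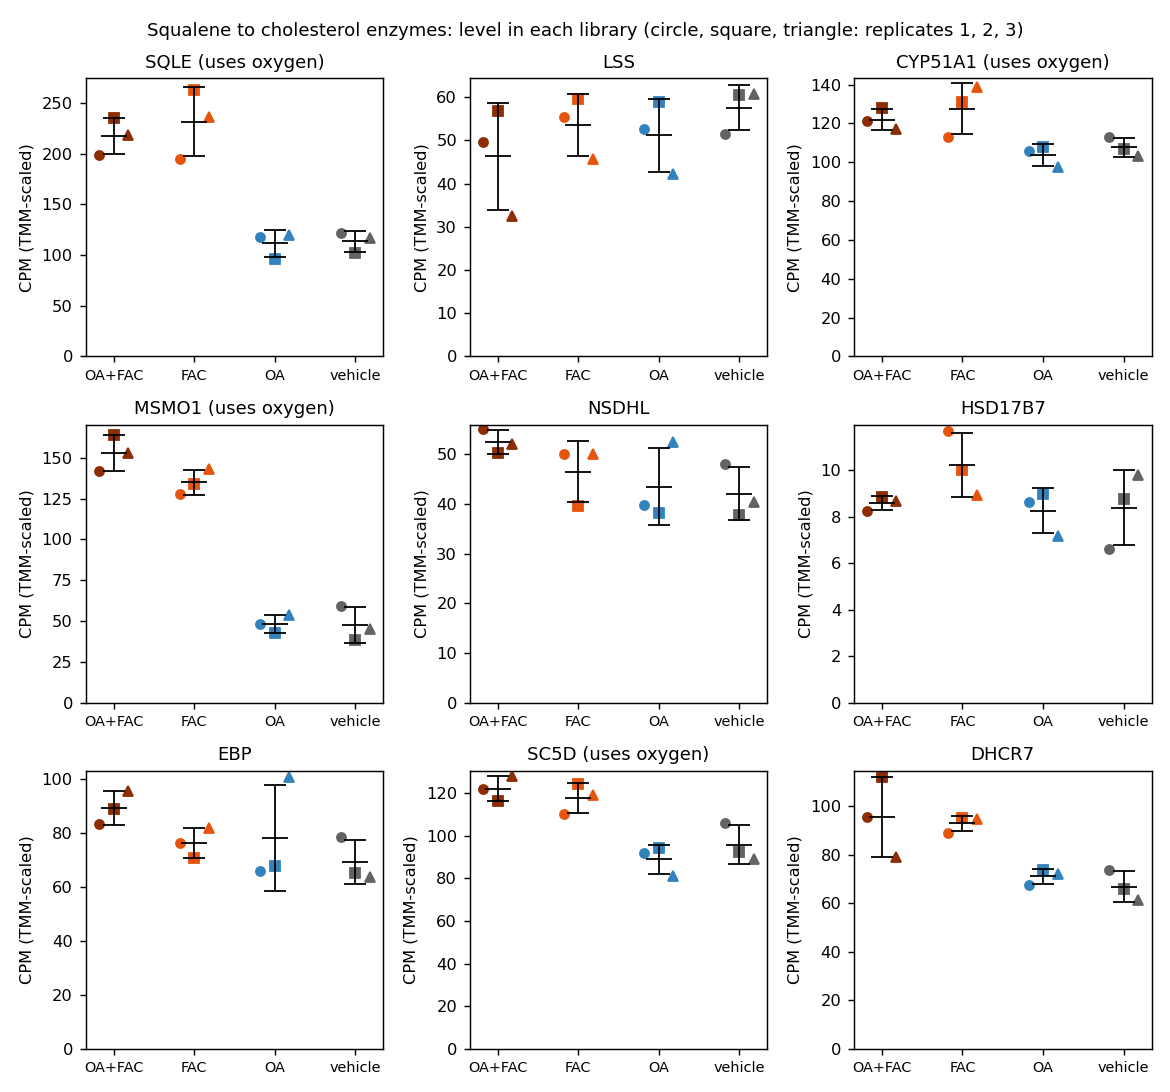
Level of each enzyme in CPM (vertical axes, from 0) in the 12 libraries of the oleic acid + FAC, FAC, oleic acid and vehicle groups (horizontal axes); points are libraries, with bars at the mean ± SD of 3. MSMO1 stands at 127.8 to 163.7 CPM in the 6 libraries with FAC and at 38.1 to 59.5 CPM in the 6 without, and CYP51A1, SQLE, SC5D and DHCR7 are also separated, whereas LSS, NSDHL, HSD17B7 and EBP overlap.

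MSMO1 had the largest change of the 9. It measured 142, 164 and 153 CPM in oleic acid + FAC libraries, 128, 134 and 143 CPM in FAC libraries, 48.2, 42.8 and 53.9 CPM in oleic acid libraries, and 59.5, 38.1 and 45.2 CPM in vehicle libraries. Every library with FAC was more than 2-fold above every library without it, the lowest with FAC being at 127.8 CPM and the highest without at 59.5 CPM. The log2 fold change was 1.5 (SE 0.15, adjusted p = 0.000469 in edgeR's quasi-likelihood test) in FAC against vehicle, a 2.84-fold rise with a 95% interval of 2.26 to 3.57. It was 1.66 (SE 0.15, adjusted p = 0.000215), a 3.17-fold rise, in oleic acid + FAC against oleic acid. Over all libraries it ranked 33rd of the 14209 genes by fold change. MSMO1 lies on the plus strand of chromosome 4 at 165327623 to 165343160 (GRCh38) and is annotated as protein-coding, with 6 exon blocks.

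SQLE, which commits squalene to sterols and is held to be a rate-controlling step of the late pathway, was next. Its levels were 199, 235 and 218 CPM in oleic acid + FAC libraries, 195, 263 and 236 CPM in FAC libraries, 118, 96.4 and 120 CPM in oleic acid libraries, and 122, 102 and 117 CPM in vehicle libraries. The groups with FAC did not overlap those without. The log2 fold change was 1.03 (SE 0.14, edgeR adjusted p = 0.00401) in FAC against vehicle and 0.97 (SE 0.14, adjusted p = 0.00505) in oleic acid + FAC against oleic acid, with 95% intervals on the log2 scale of 0.73 to 1.32 and 0.67 to 1.26. When only the 6 libraries of the second comparison were fitted, SQLE no longer passed (adjusted p = 0.0677) and the whole table held 19 calls. SQLE lies on the plus strand of chromosome 8 at 124998497 to 125022283, in 12 exon blocks.

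SC5D, on chromosome 11 at 121292453 to 121308694, rose by less. It measured 122, 116 and 128 CPM in oleic acid + FAC libraries, 110, 124 and 119 CPM in FAC libraries, 91.7, 94.0 and 81.2 CPM in oleic acid libraries, and 106, 92.3 and 88.8 CPM in vehicle libraries. The 6 libraries with FAC (109.6 CPM or more) were above the 6 without (106.1 CPM or less). Averaged over oleic acid the log2 fold change was 0.38 (SE 0.08, edgeR adjusted p = 0.00884), and 0.28 (adjusted p = 0.0885) under scaling by library totals. It was 0.45 (SE 0.11, adjusted p = 0.0481) in oleic acid + FAC against oleic acid and 0.30 (SE 0.11, adjusted p = 0.249) in FAC against vehicle. The call in oleic acid + FAC against oleic acid was close to the threshold, and it was lost when any of the 6 libraries was left out, in limma-voom and without the filter on low counts. It was also lost without the third library of both groups (edgeR adjusted p = 0.108).

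CYP51A1, on the minus strand of chromosome 7 at 92112151 to 92134803, had the smallest shift of the 4 oxygen-using enzymes and did not pass in the edgeR test used throughout. The values were 121, 128 and 117 CPM in oleic acid + FAC libraries, 113, 131 and 139 CPM in FAC libraries, 106, 108 and 97.3 CPM in oleic acid libraries, and 113, 107 and 103 CPM in vehicle libraries. The libraries with and without FAC touched without crossing, the lowest with FAC at 113.1 CPM and the highest without at 113.0 CPM. Averaged over oleic acid the log2 fold change was 0.24 (SE 0.07, edgeR adjusted p = 0.0623). The adjusted p was 0.351 in FAC against vehicle and 0.297 in oleic acid + FAC against oleic acid. Without the third library of oleic acid + FAC and of oleic acid, the averaged change passed at an adjusted p of 0.0408. It also passed in DESeq2 (adjusted p = 0.00579), with the length trend removed (0.00891) and with the replicate as a block (0.0406), and not in limma-voom (0.0633), without the filter (0.154) or under library totals (0.397). On the same strand CYP51A1 shares 99 exon bases with AC000120.3, a gene model at 1.55 to 9.53 CPM, and 2844 with AC000120.2, at up to 0.554 CPM, so reads could have been divided between them. Its antisense gene CYP51A1-AS1 shares 138 exon bases, and antisense models share 448 and 122 with LSS. Whether counting used strand is not stated, so such reads cannot be told apart.

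DHCR7, on the minus strand of chromosome 11 at 71428193 to 71452868, was the member outside the oxygen-using group that passed. It had 95.6, 112 and 79.0 CPM in oleic acid + FAC libraries, 89.2, 95 and 94.6 CPM in FAC libraries, 67.6, 73.7 and 72.1 CPM in oleic acid libraries, and 73.6, 65.8 and 61.2 CPM in vehicle libraries. Here too the libraries with FAC (79.0 CPM or more) lay above those without (73.7 CPM or less). Averaged over oleic acid the log2 fold change was 0.45 (SE 0.09, edgeR adjusted p = 0.00806), and 0.36 (adjusted p = 0.0728) under scaling by library totals. In oleic acid + FAC against vehicle it was 0.52 (SE 0.13, adjusted p = 0.0469), a call lost when 5 of the 6 libraries were left out in turn and kept without the third oleic acid + FAC library. In FAC against vehicle it was 0.47 (SE 0.13, adjusted p = 0.101), although the libraries of those groups did not overlap.

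The partners of MSMO1 in the removal of the C4 methyl groups did not pass the test. NSDHL, on chromosome X at 152830967 to 152869729, had 55.0, 50.2 and 52.0 CPM in oleic acid + FAC libraries, 50.1, 39.5 and 50 CPM in FAC libraries, 39.8, 38.2 and 52.5 CPM in oleic acid libraries, and 48.0, 37.8 and 40.3 CPM in vehicle libraries. Libraries with and without FAC overlapped, and the averaged log2 fold change was 0.21 (SE 0.10, edgeR adjusted p = 0.247). In each of the 6 libraries with FAC MSMO1 was 2.04 to 2.72 times NSDHL per kilobase, and in the 6 without it was 0.807 to 0.993 times NSDHL. HSD17B7, on chromosome 1 at 162790702 to 162812817, had 8.26 to 8.85 CPM in oleic acid + FAC libraries, 8.95 to 11.7 CPM in FAC libraries, 7.17 to 8.96 CPM in oleic acid libraries and 6.61 to 9.80 CPM in vehicle libraries. Its averaged log2 fold change was 0.17 (SE 0.12, adjusted p = 0.445), and its sign in oleic acid + FAC against oleic acid turned from 0.05 to -0.09 under scaling by library totals. Of its counts 37.6% were assigned to processed transcripts without an open reading frame, and the pseudogene HSD17B7P2 held a further 8.84% as many counts, so its level is uncertain.

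EBP and LSS gave no change past the test either. EBP, on chromosome X at 48521158 to 48528716, had 83.4, 88.9 and 95.8 CPM in oleic acid + FAC libraries, 76.3, 70.9 and 82.1 CPM in FAC libraries, 66.1, 67.8 and 101 CPM in oleic acid libraries, and 78.6, 65.2 and 63.8 CPM in vehicle libraries. The third oleic acid library was the highest of the 12, and the averaged log2 fold change was 0.17 (SE 0.11, edgeR adjusted p = 0.392). Without the third library of oleic acid + FAC and of oleic acid it passed at an adjusted p of 0.0404, as did NSDHL at 0.0475. LSS, on the minus strand of chromosome 21 at 46188141 to 46228824, had 49.7, 56.7 and 32.5 CPM in oleic acid + FAC libraries, 55.4, 59.6 and 45.6 CPM in FAC libraries, 52.6, 58.8 and 42.1 CPM in oleic acid libraries, and 51.5, 60.5 and 60.7 CPM in vehicle libraries. Its averaged log2 fold change was -0.12 (SE 0.13, adjusted p = 0.625), with a 95% interval of -0.41 to 0.17. LSS has the longest transcript of the 9 (4264 bases on average), and its lowest levels were in the libraries in which long transcripts were low. With the length trend removed, the averaged log2 fold change of LSS was -0.09 (edgeR adjusted p = 0.577). The cause of its low levels in those libraries was not tested.

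**Figure D2:**
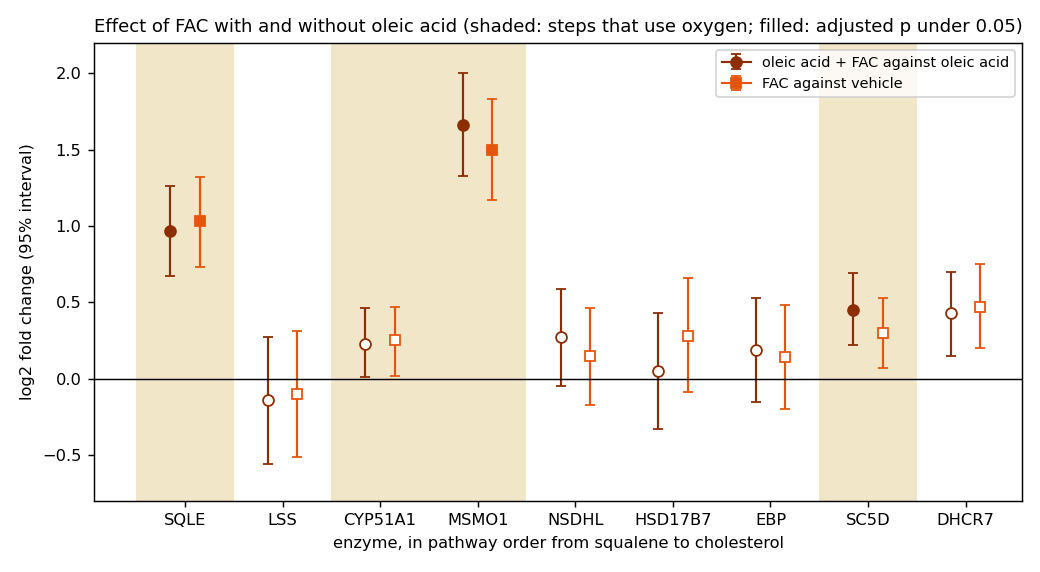
Log2 fold change (vertical axis) with its 95% interval for each enzyme in pathway order (horizontal axis), in oleic acid + FAC against oleic acid (circles) and FAC against vehicle (squares); shading marks the oxygen-using steps and filled symbols an adjusted p under 0.05. MSMO1 (1.66 and 1.5) and SQLE (0.97 and 1.03) stand above the rest, and LSS (-0.14 and -0.10) is the enzyme below 0 in both comparisons.

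Set side by side, the oxygen-using steps had the higher median fold change with FAC, although the sets overlapped: DHCR7 (0.47 on the log2 scale) and HSD17B7 (0.28) exceeded CYP51A1 (0.25) in FAC against vehicle, and DHCR7 also exceeded SC5D (0.30). In FAC against vehicle their median log2 fold change was 0.66 (4 of 4 positive, 2 past the test), beside 0.15 in the other 5 (4 of 5 positive, 0 past the test, with 1 at an unadjusted p under 0.05). In oleic acid + FAC against oleic acid the medians were 0.71 and 0.19, with 3 of 4 and 0 of 5 past the test in edgeR. These 2 comparisons share no library, though all groups share an estimate of the spread. DESeq2 and the fit with the length trend removed both called DHCR7 among the other 5 in each comparison, and limma-voom called none of the 5. The 3 of 4 became 2 of 4 in limma-voom (SC5D adjusted p = 0.0507), without the filter on low counts (0.0979) and under scaling by library totals (0.267). It also became 2 of 4 in edgeR without the third library of oleic acid + FAC and of oleic acid (SC5D adjusted p = 0.108). DHCR7 was then called in FAC against vehicle (adjusted p = 0.0135) and in oleic acid + FAC against oleic acid (0.0281). The libraries with FAC lay wholly above those without in 5 members, all 4 oxygen-using enzymes and DHCR7, where 6.84% of all genes tested were separated in either direction. The same 5 were separated in FAC against vehicle (22.4% of all genes) and in oleic acid + FAC against oleic acid (18.1%). With 4 and 5 genes in the sets, and no test of the sets, the difference is a description of these enzymes.

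The difference between the sets in summed level came mostly from SQLE and MSMO1, the 2 members that rose most. The 4 oxygen-using enzymes made up 65.9% to 70.4% of the summed CPM of the 9 in the libraries with FAC, against 56.1% to 60.8% in those without. With SQLE and MSMO1 left out of the sum, SC5D and CYP51A1 made up 43.5% to 48.1% in the libraries with FAC and 39.4% to 45.9% in those without, which overlap. The 39.4% was the third oleic acid library, and the rest without FAC were at 44.8% or more. Leaving out the largest risers made a smaller difference certain, and the sum left still held DHCR7, which rose. SC5D (0.30) and CYP51A1 (0.25) remained above the median of the other 5 (0.15) in FAC against vehicle, though DHCR7 (0.47) exceeded both and HSD17B7 (0.28) exceeded CYP51A1. Iron did not divide the members in the same way: SQLE, which holds none, rose 2.04-fold in FAC against vehicle, and the heme enzyme CYP51A1 did not pass (1.19-fold, 95% interval 1.01 to 1.39). In ratios between enzymes, SQLE was 5.58 to 10.6 times LSS per kilobase with FAC, against 2.60 to 4.50 times without. The highest SQLE to LSS ratios with and without FAC were in the third libraries of oleic acid + FAC (10.6) and of oleic acid (4.50), where LSS was low. MSMO1 was 1.48 to 1.90 times CYP51A1 with FAC, against 0.516 to 0.802 times without. SC5D was 0.959 to 1.29 times EBP with FAC and 0.589 to 1.04 times without, which overlap.

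Oleic acid changed none of the members past the test, with or without FAC. In oleic acid against vehicle 0 of the 9 passed, where 0% of all genes passed in edgeR, DESeq2 and limma-voom alike and 118 of 14209 genes had an unadjusted p under 0.05, none of them a member. The log2 fold changes of the 9 ran from -0.17 (LSS) to 0.18 (EBP). Set against FAC alone, oleic acid + FAC had 0 members past the test, where 0% of all genes passed in edgeR and in limma-voom, 1 gene passed in DESeq2, and 576 had an unadjusted p under 0.05, again without a member. The fold changes there ran from -0.25 (HSD17B7) to 0.22 (EBP). The libraries of HSD17B7 (lower) and of NSDHL and EBP (higher) did not overlap in that comparison, where 10.5% of all genes tested were separated in either direction, and their adjusted p were 0.707 to 0.715 in edgeR's test. For MSMO1 the 95% interval of the oleic acid effect was -0.31 to 0.35 in the absence of FAC and -0.14 to 0.50 in its presence, and for SQLE it was -0.32 to 0.26 and -0.38 to 0.20. Those intervals leave out a change of 2-fold in either direction.

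**Figure D3:**
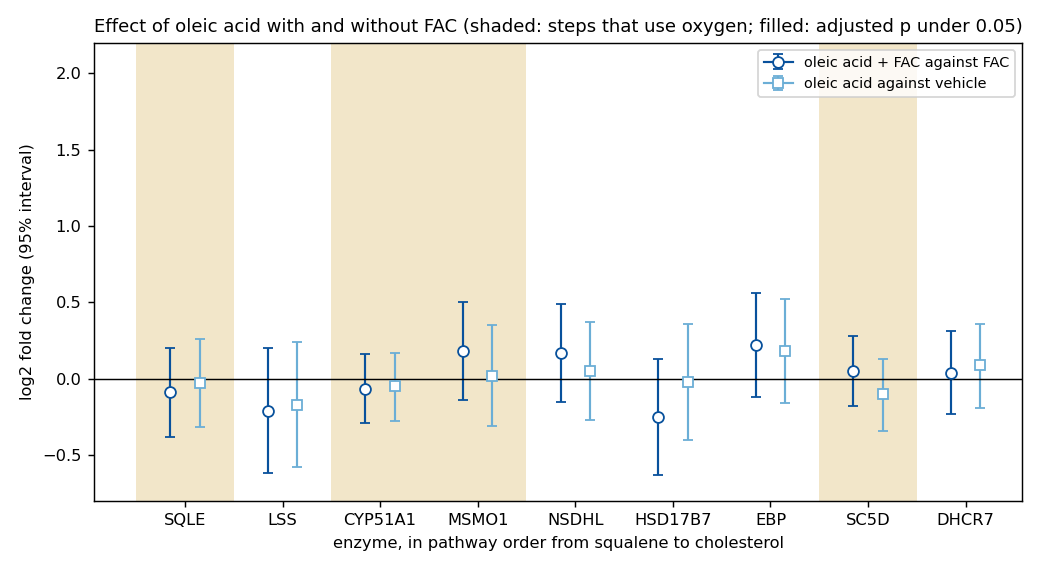
Log2 fold change (vertical axis) with its 95% interval for each enzyme in pathway order (horizontal axis), in oleic acid + FAC against FAC (circles) and oleic acid against vehicle (squares), on the scale used for the FAC comparisons; shading marks the oxygen-using steps. Every interval includes 0, and the values lie between -0.25 and 0.22.

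Whether oleic acid altered the FAC effect was tested by the interaction of both treatments. None of the 9 passed, where 0% of all genes passed in edgeR, DESeq2 and limma-voom, with 116 genes but no member at an unadjusted p under 0.05. The interaction, the FAC effect with oleic acid minus that without it, was 0.16 (95% interval -0.30 to 0.62) on the log2 scale for MSMO1 and -0.06 (-0.47 to 0.35) for SQLE. For SC5D it was 0.15 (-0.17 to 0.48). The intervals of LSS (-0.62 to 0.54) and HSD17B7 (-0.76 to 0.31) were the widest. With these intervals, a modest change of the FAC effect by oleic acid was not detectable.

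The transcript table held 67 transcripts of the members, of which 35 were tested and carried 99.8% of the members' counts. Averaged over oleic acid 2 of the 35 changed with FAC, both upward, where 0.299% of all 51464 transcripts tested passed. They were MSMO1-201 (log2 fold change 1.49, SE 0.15, edgeR adjusted p = 0.00508) and SC5D-201 (0.82, adjusted p = 0.00771). SQLE-201 had 0.97 (adjusted p = 0.0954) and the shorter MSMO1-202 had 1.79 (SE 0.36, adjusted p = 0.0969). The main transcript of CYP51A1, CYP51A1-201, had 0.24 (adjusted p = 0.457).

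For SC5D the transcripts SC5D-201 and SC5D-202 are set side by side, a pair picked out after their values were seen. Their first exons lie side by side on chromosome 11, at 121292453 to 121292816 for SC5D-201 and 121292852 to 121293078 for SC5D-202. SC5D-201 measured 57.9, 63.0 and 62.9 CPM in oleic acid + FAC libraries, 56.1, 70.6 and 65.6 CPM in FAC libraries, 35.3, 38.1 and 30.9 CPM in oleic acid libraries, and 39.0, 34.6 and 35.2 CPM in vehicle libraries. SC5D-202 measured 51.1 to 64.7 CPM in the libraries with FAC and 48.5 to 68.2 CPM in those without. SC5D-201 was thus 52.8% ± 3.67 of both with FAC and 39.2% ± 2.00 without (SD, n = 6 each), a difference of 13.6 percentage points that is given as a description, with no test. A test of transcript usage over all genes called none of the 9 members averaged over oleic acid (SC5D adjusted p = 0.692), where 0.983% of 10378 genes passed. The member nearest the threshold in that test was LSS (adjusted p = 0.0956), not SC5D. These values are estimates that divide reads among overlapping transcripts.

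**Figure D4:**
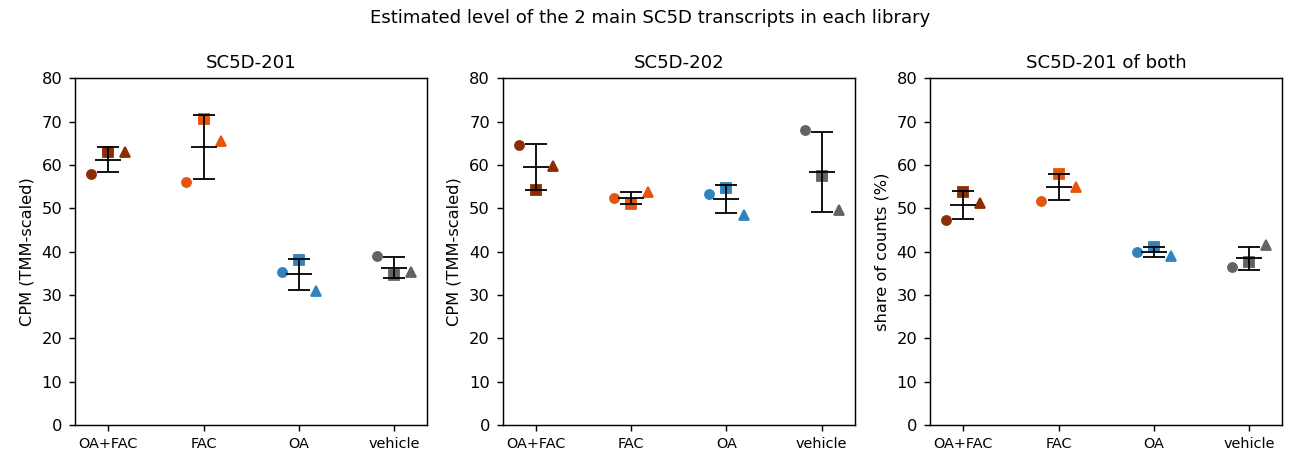
Estimated level in CPM of SC5D-201 and SC5D-202, and SC5D-201 as a percentage of both (vertical axes, all from 0 to 80), in the 12 libraries of the oleic acid + FAC, FAC, oleic acid and vehicle groups (horizontal axes), with bars at the mean ± SD of 3. SC5D-201 makes up 47.2% to 58.0% with FAC and 36.4% to 41.5% without, while SC5D-202 overlaps between the groups.

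The main transcripts of SQLE, MSMO1 and DHCR7 were divided differently in some libraries. SQLE-201 made up 39.6% of itself and the shorter SQLE-206 in the third library of oleic acid + FAC and 56.7% in that of oleic acid, against 74.6% to 88.2% in the other 10. MSMO1-201 made up 49.8% and 57.5% of its pair in the same 2 libraries, against 72.3% to 86.4% in the others. DHCR7-201 made up 8.09% of itself and DHCR7-202 in the third library of oleic acid + FAC and 41.1% in that of oleic acid, but 16.9% and 35.8% in the second and the third vehicle library as well, and 44.8% to 86.7% in the other 8. The gene totals in the third library of oleic acid + FAC and of oleic acid were 153 and 53.9 CPM for MSMO1 and 218 and 120 CPM for SQLE, close to the other libraries of their groups.

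Promoter windows show what the genes have in common around an annotated start. RefSeq windows on GRCh38.p14, from 250 bases before to 50 bases after an annotated start, matched 8 of the 9 members in 10 windows; SQLE was not analysed here. The windows were searched on both strands for CCAAT, the box bound by NF-Y, a known partner of SREBP2, for GGGCGG (the GC box bound by SP1), for CACGTG (an E-box) and for the consensus of the sterol regulatory element. CCAAT or its reverse ATTGG was present in 7 of the 8 members, whereas 34.6% of 35116 windows in the table hold it. GGGCGG was also present in 7 of 8, against 45% of windows, and CACGTG in 2, against 7.26%. The sterol element was found in 0 of 8 and is in 0.154% of windows. A member counted if any of its windows held the motif, whereas the percentages are of single windows. A match is a string of letters and not a measured binding site, and no match says only that these letters are not in the window.

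The windows of MSMO1 and NSDHL are shown for their number of CCAAT boxes beside unequal FAC effects, that of DHCR7 for the member without oxygen chemistry that rose, and the first of SC5D, whose start falls in the first exon of SC5D-201. That SC5D window begins after the first base of SC5D-201 (121292453), so it does not hold the sequence upstream of that transcript. Sequences are 5′ to 3′ on the strand of the gene, with CCAAT and ATTGG in capitals. They lie at chr4:165327419-165327718 (plus strand) for MSMO1, chrX:152830813-152831112 (plus) for NSDHL, chr11:121292521-121292820 (plus) for SC5D and chr11:71448344-71448643 (minus) for DHCR7.
MSMO1: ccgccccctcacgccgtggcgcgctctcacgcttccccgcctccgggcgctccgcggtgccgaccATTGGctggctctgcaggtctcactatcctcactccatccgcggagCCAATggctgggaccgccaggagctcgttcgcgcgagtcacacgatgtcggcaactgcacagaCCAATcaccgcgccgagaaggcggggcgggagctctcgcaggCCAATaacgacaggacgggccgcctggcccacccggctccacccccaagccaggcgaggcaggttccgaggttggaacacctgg
NSDHL: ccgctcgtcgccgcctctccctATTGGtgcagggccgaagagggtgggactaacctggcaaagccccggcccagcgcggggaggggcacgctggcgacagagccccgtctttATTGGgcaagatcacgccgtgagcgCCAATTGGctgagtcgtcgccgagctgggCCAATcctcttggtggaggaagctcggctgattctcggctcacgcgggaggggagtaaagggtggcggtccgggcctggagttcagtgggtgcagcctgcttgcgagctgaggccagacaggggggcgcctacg
SC5D: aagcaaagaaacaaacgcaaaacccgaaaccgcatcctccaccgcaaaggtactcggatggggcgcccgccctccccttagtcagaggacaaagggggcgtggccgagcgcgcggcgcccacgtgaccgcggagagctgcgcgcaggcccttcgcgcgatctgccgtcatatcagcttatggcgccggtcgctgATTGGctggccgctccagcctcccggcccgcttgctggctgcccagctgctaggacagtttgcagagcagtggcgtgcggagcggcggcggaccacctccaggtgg
DHCR7: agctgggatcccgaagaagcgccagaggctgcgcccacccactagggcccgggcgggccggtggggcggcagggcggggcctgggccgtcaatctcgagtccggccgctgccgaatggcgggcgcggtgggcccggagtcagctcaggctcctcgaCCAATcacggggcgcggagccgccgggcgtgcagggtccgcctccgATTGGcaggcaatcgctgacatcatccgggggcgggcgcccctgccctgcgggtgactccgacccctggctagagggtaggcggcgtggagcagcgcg

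The number of boxes did not follow the size of the FAC effect. NSDHL, which did not pass, had 5 CCAAT boxes, of which 2 overlap on opposite strands as CCAATTGG, and MSMO1, which rose most, had 4. EBP had 3, HSD17B7 and DHCR7 had 2, SC5D and LSS had 1, and CYP51A1 had 0. In MSMO1 and NSDHL all boxes lay upstream of the RefSeq start that sets the window. The GENCODE gene models begin before that start, at 165327623 for MSMO1 and 152830967 for NSDHL. The box nearest the window's start (-34 in MSMO1, -84 in NSDHL) therefore lies inside the gene model.

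**Figure D5:**
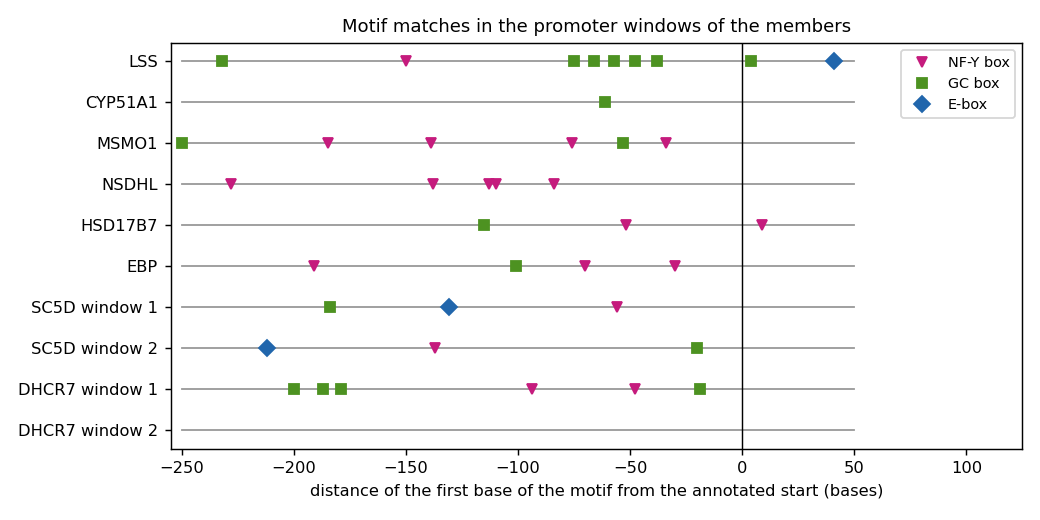
Positions of the NF-Y box (triangles), GC box (squares) and E-box (diamonds) along each promoter window, as the distance of the first base from the annotated start in bases (horizontal axis), with 1 line per window in pathway order. NSDHL has 5 NF-Y boxes and MSMO1 has 4, CYP51A1 has a GC box and no NF-Y box, and the second DHCR7 window has none of the 3 motifs.

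Genes around the pathway were read from 5 lists. Of all genes tested, 1.19% passed in FAC against vehicle and 2.21% in oleic acid + FAC against oleic acid. The share was 8.76% in the average over oleic acid and 3.07% in oleic acid + FAC against vehicle. Of 8 enzymes from acetyl-CoA to farnesyl diphosphate, 3 rose in FAC against vehicle, among them IDI1 (isopentenyl diphosphate isomerase; log2 fold change 1.27, edgeR adjusted p = 0.00961) and HMGCS1 (HMG-CoA synthase; 0.78, adjusted p = 0.0283). Against oleic acid, oleic acid + FAC raised 1 of the 8, IDI1 (1.12, adjusted p = 0.0138). Of 15 genes of sterol control and uptake, 2 rose in each FAC comparison, among them INSIG1, which had a log2 fold change of 2.40 in FAC against vehicle (adjusted p = 0.000179). SREBF2, the gene of SREBP2, had 0.18 (adjusted p = 0.857).

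The remaining lists hold the direct neighbours of the members. In the average over oleic acid 8.76% of all genes tested passed, so 1 call in a list of 9 is close to that share. Of 6 other sterol steps 0 passed in FAC against vehicle and 1 in the average over oleic acid, FDFT1, which makes squalene and had 229 ± 5.68 CPM with FAC against 165 ± 10.5 CPM with vehicle (averaged log2 fold change 0.47, SE 0.08, edgeR adjusted p = 0.00457). LBR and TM7SF2, the sterol C14-reductases that act after CYP51A1, had averaged changes of -0.10 and -0.12 (adjusted p = 0.633 and 0.645). Of 9 electron donors and partners of the oxygen-using steps none rose, and 1 fell in the average, CYB5R1 (-0.49, adjusted p = 0.0112). POR, the reductase that passes electrons to SQLE and CYP51A1, was at 54.2 ± 4.04 CPM with FAC and 54.7 ± 5.51 CPM with vehicle (SD, n = 3 each). CYB5A, cytochrome b5, had an averaged change of 0.13 (adjusted p = 0.654). Of 9 genes for the turnover of pathway enzymes, 1 fell in the average, the ubiquitin-conjugating enzyme UBE2G2 (-0.42, adjusted p = 0.00239), and MARCH6, the ligase that marks SQLE for degradation, had -0.01. None of the genes on these lists passed in oleic acid against vehicle.

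The genes whose course over the 12 libraries was most like that of a member were sought among 12325 genes, as the smallest root-mean-square difference of log2 CPM after centring. For SQLE they were IDI1 (0.15), KLHL24 (0.15) and ZNF143 (0.19). For MSMO1 they were CLK3 (0.20), HIST2H2BD (0.21) and CLK4 (0.29). For SC5D they were SLC1A3, MIER1 and CDKN1B (0.07 each), and for DHCR7 MMP15 (0.09), NKAIN2 (0.10) and MYC (0.11). The nearest genes of the members with small changes lay at 0.06 to 0.11, where many genes are close to flat. These are descriptions of the same 12 libraries.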

How the data were processed

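RNA sequencing of 12 HEK293 libraries was analysed from tables that the authors deposited. They hold estimated counts per gene symbol and per transcript, per the labels, and the submitters' processing notes list kallisto 0.46.1, bcl2fastq 2.19, the build GRCh38.p12 (hg38) and sleuth 0.30.0. The deposited estimated counts were whole, so rounding changed 0 values. Whether counting used strand is not given in the sources used here. Transcripts were matched to GENCODE 29 by ID without its version (89.9% of 188753).

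A quasi-likelihood model was fitted to all 12 libraries with edgeR 4.0.16 (R 4.3.3), with group means, TMM scaling and filterByExpr, two-sided tests and Benjamini-Hochberg adjustment over 14209 genes or 51464 transcripts, threshold 0.05. Intervals are 95%. Transcript usage was tested with edgeR's diffSpliceDGE, added after the data were seen. The fit was also run on simulated counts that held no shared replicate shift and no length trend. That run cannot show how the fit handles either of them. Alternatives were DESeq2 1.42.0, limma-voom (limma 3.58.1), other filters, scalings and libraries, and the replicate number as a block. Same-numbered libraries deviated together in oleic acid + FAC against oleic acid (correlations 0.67, 0.48 and 0.75) and in oleic acid + FAC against FAC (0.30, 0.40 and 0.51). In FAC against vehicle the first and second did (0.36 and 0.54), and the third did not (0.04). Replicates differed by more than counting noise (chi-square per degree of freedom 8.54 to 130). Levels per kilobase use the count-weighted transcript length. All 9 members are named whatever their result, with the genes of the lists that passed and their closest neighbours; some list genes are not reported here. The members and lists were chosen with earlier results of these data known.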

Additional observations from a re-analysis of the deposited data

How the results depend on the processing

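MSMO1 passed the test under every alternative run in the 4 comparisons with FAC, and SQLE under all except the fit of the 6 libraries of oleic acid + FAC against oleic acid (adjusted p = 0.0677), which left 1 member called. Scaling by library totals left 2 members called in the average over oleic acid (MSMO1 and SQLE), with SC5D at 0.0885 and DHCR7 at 0.0728; leaving out the third library of oleic acid + FAC and of oleic acid gave 7, with CYP51A1, NSDHL and EBP in addition. With the replicate block and a removed length trend, FAC against vehicle had 4 members called (SC5D and DHCR7 in addition) and oleic acid + FAC against oleic acid had 5 (CYP51A1 and DHCR7 in addition). The replicate block alone left the counts in FAC against vehicle (2 members), oleic acid + FAC against oleic acid (3) and oleic acid + FAC against vehicle (3) as they were. It gave 5 in the average over oleic acid, with CYP51A1 at an adjusted p of 0.0406. In FAC against vehicle the third libraries did not deviate together (correlation 0.04). Member transcripts past the test were 4 with DESeq2, 4 without those 2 libraries and 1 to 3 with a library left out. The SC5D-201 difference, an alternative set added after seeing the data, was 13.8 points over all SC5D transcripts, 13.9 without those 2 libraries and 12.6 to 14.7 with a library left out. The cause of these differences was not tested.

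Over all genes, FAC against vehicle called 169 genes, against 498 with DESeq2, 431 with the replicate block, 430 with the length trend removed, 1095 with both, 351 with the 6 libraries alone, 672 without those 2 libraries and 27 to 79 with a library left out. Oleic acid + FAC against oleic acid called 314, against 761, 740, 753, 2011, 19 and 356 under the same settings and 55 to 449 with a library left out. The average called 1244, against 2211 with the block, 2276 with the length trend removed, 3764 with both, 2143 without those 2 libraries and 738 to 1810 with a library left out. Oleic acid + FAC against vehicle called 436, against 1261 with DESeq2, 1528 with the block, 1058 with the length trend removed, 2530 with both, 162 with the 6 libraries alone, 704 without those 2 libraries and 62 to 324 with a library left out. The transcript test called 154, against 1122 with DESeq2, 39 without a filter, 74 with the length trend removed, 42 with the block in addition, 251 without those 2 libraries and 21 to 139 with a library left out. Under library totals the calls split into 32 up and 84 down in FAC against vehicle (65 and 104 with TMM), 40 and 264 in oleic acid + FAC against oleic acid (108 and 206), 206 and 1003 in the average (465 and 779) and 59 and 544 in oleic acid + FAC against vehicle (146 and 290). With the length trend removed the last 3 split into 340 and 413, 1122 and 1154, and 511 and 547.

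Of 1035 alternative values for single members, 62 had the other sign, and 0 of these passed the test. HSD17B7 in oleic acid + FAC against oleic acid was -0.09 with library totals, -0.01 with the length trend removed, -0.00 with the block in addition and -0.04 without those 2 libraries, and in oleic acid + FAC against vehicle it was -0.15, -0.08 and -0.09 under the first 3 of these. In oleic acid against vehicle MSMO1 was -0.02, -0.01, -0.01 and -0.07 under the 4, NSDHL was -0.02, -0.02 and -0.11 under the last 3, and without those 2 libraries HSD17B7 was 0.06 and EBP -0.05. Against FAC, oleic acid + FAC under library totals gave SC5D -0.09 and DHCR7 -0.08. In the interaction LSS was 0.00, 0.00 and 0.03 under the last 3, CYP51A1 0.00 and 0.00 with the length trend removed without and with the block, EBP -0.04 with library totals and -0.00 with the length trend removed, and DHCR7 0.07 without those 2 libraries. With a library left out, the interaction ran from -0.09 to 0.05 for CYP51A1, -0.18 to 0.07 for DHCR7, -0.06 to 0.27 for EBP, -0.21 to 0.16 for LSS, -0.03 to 0.30 for MSMO1 and -0.17 to 0.04 for SQLE. In oleic acid against vehicle it ran from -0.05 to 0.29 for EBP, -0.16 to 0.11 for HSD17B7, -0.12 to 0.21 for MSMO1, -0.11 to 0.15 for NSDHL and -0.10 to 0.06 for SQLE. For oleic acid + FAC against FAC it ran from -0.09 to 0.16 for DHCR7 and -0.20 to 0.01 for SQLE. For oleic acid + FAC against oleic acid it ran from -0.04 to 0.12 for HSD17B7 and -0.32 to 0.06 for LSS, and in oleic acid + FAC against vehicle from -0.11 to 0.16 for HSD17B7. Depth limits HSD17B7 most, at 96 to 190 counts a library.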
